A study of Mus musculus with 16 samples.

Results

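The chemokine receptor gene Ccr2 and 4 genes for monocyte-attracting chemokines, Ccl2, Ccl7, Ccl8 and Ccl12, were followed through every cell class of mouse melanomas. The 4 chemokines are called ligands below for short. Their binding to CCR2 was not measured, and that of mouse CCL8 is not assumed. The 5 genes were taken by symbol out of 32285 genes in each count matrix, and each symbol had 1 row. CCR2 is a receptor on monocytes that is needed for their exit from bone marrow and their entry into inflamed tissue and tumours. CCL2, CCL7, CCL8 and CCL12 form the monocyte chemoattractant protein group of CC chemokines, and CCL12 is made in mice but has no direct human counterpart. Macrophages in tumours arise largely from CCR2-bearing monocytes, which lose the receptor as they mature, and macrophages themselves release these chemokines.

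C57BL/6J mice carried subcutaneous tumours grown from 1000000 cells of the Bro4.1 line, a derivative of the B16 melanoma line, either control cells or cells without B2m, the light chain of MHC class I. Injections of 100 µg into the peritoneum on days 6, 9 and 12 gave either a CD40 agonist antibody (anti-CD40) or rat IgG2a as isotype control, and the tumours were taken at day 14. Bro4.1 control tumours under isotype antibody (control isotype) came from 5 mice, control tumours under anti-CD40 (control CD40) from 2, B2m-null tumours under isotype (B2m-null isotype) from 5 and B2m-null tumours under anti-CD40 (B2m-null CD40) from 4. Tumours were digested with collagenase and DNAse, enriched for CD45-bearing cells on magnetic beads, marked with 1 hashtag antibody per mouse and pooled in 2 droplet lanes per group. The labels list more hashtags than most of the matrices hold, so the numbers of mice were taken from the hashtags with counts. The mice of the control CD40 group were in both of its lanes, whose counts were summed per mouse. The labels attach the B2m genotype to the mouse, whereas the series text places the loss in the tumour cells. In melanoma-like cells B2m stood at 1089 to 2135 CPM (UMI counts of a gene per 1000000 in the same cells) in the 4 lanes of control tumours and at 189 to 461 CPM in the 4 lanes of B2m-null tumours, while macrophages held 2844 to 5820 CPM in all 8.

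After removal of hashtag doublets and low-quality barcodes, 91461 cells remained, of which 74243 carried the hashtag of 1 mouse. The lanes held 40.3% to 93.0% assignable barcodes, so that mouse values in the B2m-null isotype group rest on the smaller part of 1 of its lanes. Classes were named from marker genes and are X-like classes throughout: 33133 macrophage-like cells, 2523 monocyte-like cells, 6525 conventional and mature dendritic cells (the cDC set) and 923 fibroblasts led the analysis. Clusters 4 and 7 scored nearly alike for monocytes and macrophages and stayed unnamed, in neither set. Cluster 15, in which 57.7% of cells carried transcripts of both T cells and myeloid cells, is left out of the orders given below. The 5 genes and every related gene listed here were kept out of the genes used for clustering. Values per mouse are summed unique molecular identifiers (UMIs, single captured transcripts) as CPM, given as mean ± SD over mice with at least 20 cells of that class. Because these are 3′ end counts without correction for length, levels were compared between cells for 1 gene and not between genes.

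The 4 ligands are neighbours on chromosome 11 (GRCm38). Ccl2 (ENSMUSG00000035385) lies at chr11:82035571-82037453, Ccl7 (ENSMUSG00000035373) at chr11:82045712-82047525, Ccl12 (ENSMUSG00000035352) at chr11:82101845-82103400 and Ccl8 (ENSMUSG00000009185) at chr11:82115185-82116799, all on the plus strand. Ccl11, whose product eotaxin attracts eosinophils, lies between Ccl7 and Ccl12. Ccr2 (ENSMUSG00000049103) is on chromosome 9, at chr9:124101950-124113557. The RefSeq promoter table for GRCm38.p6 matched Ccl12 and Ccl8. The 250 bases before each start are shown because these are the 2 ligands matched, and the values of both neighbours are set side by side in the comparisons below. Capitals mark the TATA box. The windows are chr11:82101595-82101844 and chr11:82114935-82115184, plus strand.
Ccl12: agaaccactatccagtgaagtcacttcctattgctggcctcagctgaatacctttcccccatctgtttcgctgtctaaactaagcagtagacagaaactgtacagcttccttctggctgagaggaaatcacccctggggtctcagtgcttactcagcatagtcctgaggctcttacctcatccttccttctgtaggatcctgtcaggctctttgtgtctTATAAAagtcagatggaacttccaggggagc
Ccl8: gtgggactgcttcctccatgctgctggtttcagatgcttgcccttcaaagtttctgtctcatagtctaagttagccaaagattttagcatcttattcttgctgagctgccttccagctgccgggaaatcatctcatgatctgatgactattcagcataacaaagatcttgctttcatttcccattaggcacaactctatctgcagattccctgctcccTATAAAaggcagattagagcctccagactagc
The TATAAA letters sit 31 to 26 bases before the start of Ccl12 and 32 to 27 bases before that of Ccl8, and 12.4% of 32851 promoter windows of this length hold them on either strand. At matching positions 36.0% of the 250 bases were identical, and 46.0% of the last 50. Both windows share the run GGAAATCA, which begins 128 bases before each start. Of 7 other motifs searched on both strands, the PU.1 letters GAGGAAG were found in Ccl8 alone, on the minus strand, and are held by 10.6% of windows. The kappa-B and ISRE motifs (1.4% and 3.0% of windows) and the letters TGANTCA for AP-1 (6.7%), TTCNNNGAA for GAS (7.0%), TTNNGCAA for C/EBP (9.6%) and GGGCGG for the GC box (32.7%) were in neither window.

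Each ligand had its own spread over cell classes. In control isotype tumours Ccl2 was highest in the unnamed cluster 4 (4996 ± 1037 CPM, SD, n = 5), followed by macrophages at 3902 ± 926, monocytes at 3377 ± 915 and fibroblasts at 2428 ± 1733. The ranges of these 4 classes overlapped. Plasmacytoid dendritic cells (1173 ± 655), regulatory T cells (879 ± 336), mature dendritic cells (731 ± 216), cDC2 (437 ± 193) and cDC1 (386 ± 116) were lower and again overlapped from one to the next. Neutrophils (849.5 ± 298.5, n = 3) and B cells (758 ± 319, n = 4) were in the same range. CD8 T cells, which are not a known source of the chemokine, held 91.1 ± 19.5 CPM, and melanoma-like cells 290 ± 187. In cells thinned to 1000 UMIs, 71.0% of control isotype macrophages and 8.01% of CD8 T cells had a Ccl2 UMI (95% Wilson intervals 69.9 to 72.0% and 6.68 to 9.59%). Before thinning the shares were 86.1% and 22.0%, at median depths of 4456 and 2725 UMIs. Intervals of this kind cover counting error only, and the share in T cells was read as background from free RNA or shared droplets. Larger thinned shares were found in B cells (28.4%), regulatory T cells (23.9%) and plasmacytoid dendritic cells (22.5%). Levels of regulatory T cells and of the dendritic classes are thus not shown to exceed background.

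Ccl7, which also binds CCR1 and CCR3, was highest in cluster 4 (3321 ± 900 CPM, n = 5) and macrophages (2845 ± 808), whose ranges overlapped. Monocytes held 1005 ± 258 and fibroblasts 861 ± 472, also overlapping, and cDC1 and cDC2 held 234 each. Ccl12 was highest in macrophages at 1617 ± 385 CPM, with cluster 4 at 1217 ± 298, monocytes at 653 ± 315 and fibroblasts at 106 ± 78.7. Fibroblasts carried Ccl2, Ccl7 and Ccl8, but their Ccl12 level overlapped that of melanoma-like cells (98.6 ± 102). For Ccl8 macrophages held 3943 ± 1130 CPM, every mouse above all values of the next class, cluster 4, at 845 ± 308. Fibroblasts held 822 ± 455, and monocytes 136 ± 27.5, within the range of cDC1 (189 ± 92.5).

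Ccr2 was highest in monocytes, at 1333 ± 263 CPM (n = 5), then cluster 4 at 914 ± 121, cluster 7 at 867 ± 256 and natural killer cells at 762 ± 76.9, each overlapping its neighbour. cDC2 held 544 ± 142, regulatory T cells 465 ± 82.7 and cDC1 360 ± 86.6. Macrophages were at 134 ± 46.1, overlapping mature dendritic cells (150 ± 38.6) and CD8 T cells (107 ± 49.7), and melanoma-like cells were at 20.4 ± 12.2. The plot of levels by class sets these values beside those of the other groups.

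**Figure D1:**
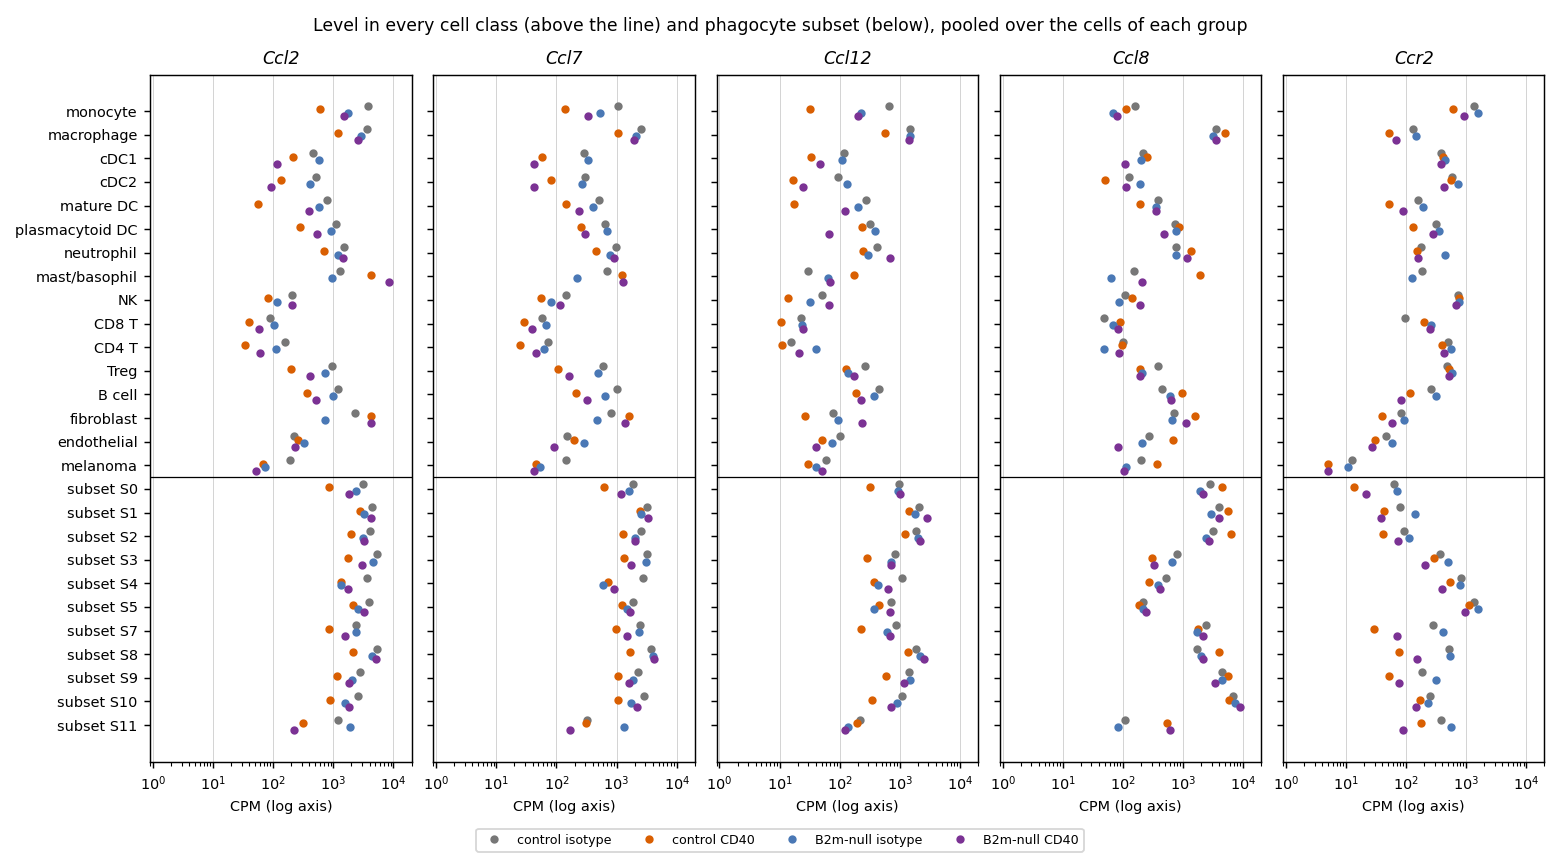
Level of each gene (CPM, log axis, pooled over all cells of a group) in 16 cell classes and 11 phagocyte subsets, 1 point per group. Pools without a count and pools under 1 CPM are not drawn. Ccl8 is set apart by its low level in monocytes and in subset S5, where Ccr2 is high.

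Most of the RNA of the ligands in the sequenced cells was held by macrophages. They held 58.1% to 71.4% of all Ccl2 UMIs in the 4 groups, and 77.7% to 89.4% of those of Ccl8. The next largest holder of Ccl2 was cluster 4 in both isotype groups, fibroblasts in control CD40 tumours and the unnamed cluster 7 in B2m-null CD40 tumours (12.0%, with cluster 4 at 9.38% and fibroblasts at 5.43%). Cluster 7 made up 21.7% of the cells of the first B2m-null CD40 lane and 5.15% of the second. Cluster 4 held 19.0% of Ccl2 UMIs in control isotype tumours and 4.30% in control CD40 tumours, where fibroblasts held 15.9% against 1.43% and the mixed cluster 15 held 14.0% against 5.86%. For Ccr2, CD8 T cells held 2.01% of the UMIs in control isotype tumours and 25.9% in control CD40 tumours, and 1.72% and 16.8% in the B2m-null groups. These shares follow the number of cells captured of each class as well as the level per cell, and with 1 pool of cells per lane they have no test.

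**Figure D2:**
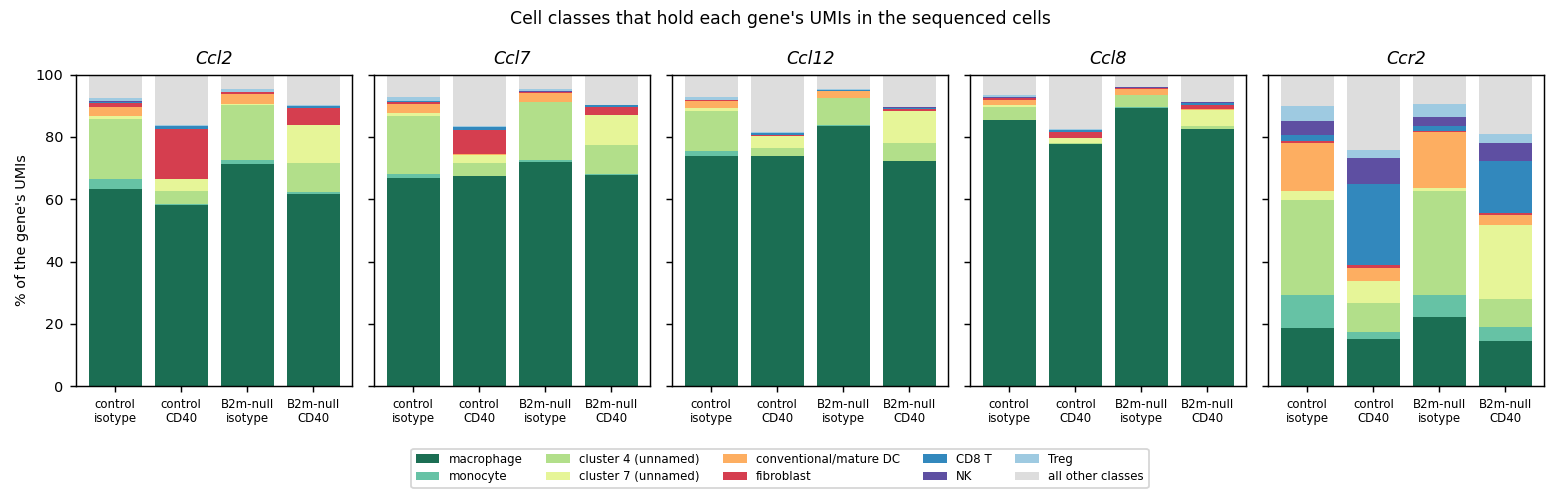
Share of each gene's UMIs (%, y axis) held by each cell class in the 4 groups, all lanes of a group pooled. Macrophages hold 58.1% to 71.4% of Ccl2 UMIs, and CD8 T cells take 25.9% of Ccr2 UMIs in control CD40 tumours.

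Among phagocytes, 48281 cells of the macrophage, monocyte and transitional clusters were clustered again into 13 subsets, 11 of which entered tests. S5 (leading genes Vcan and Ccl24, classical monocyte-like) and S11 (nonclassical monocyte-like) were monocyte subsets. S0 was Mmp12-like, S2 cycling, S3 Arg1-like, S8 bore an interferon signature and S10 was resident-like (Cd209f, Lyve1, Cd163). S1 (Slc40a1, Fcrls, Stab1), S4 (Ly6i, Upp1, Ass1), S7 (Fabp7, Ubd, Gpnmb) and S9 (Serpina3g, Cxcl9, Vcam1) stayed unnamed. The subset S6, a mixture with T cell transcripts, entered no test.

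The ligands did not share one peak subset. In control isotype tumours Ccl2 was highest in S3 (5686 ± 893 CPM, n = 5) and S8 (5261 ± 1218), and lowest in S7 (2430 ± 1053) and S10 (2573 ± 628) among the macrophage subsets. Ccl7 had its highest values in S8 (3784 ± 1121), S1 (3772 ± 1146) and S3 (3633 ± 743). Ccl12 peaked in S1 (2326 ± 597) and S2 (2035 ± 676) and was low in S3 (889 ± 146). Ccl8 was highest in S10, at 6597 ± 1674, and was 708 ± 220 in S3 and 231 ± 40.2 in S5. Ccr2 was highest in S5 at 1304 ± 125, with S4 at 826 ± 188 and S8 at 542 ± 232, and lowest in S0 at 72.3 ± 34.1. S11, the nonclassical subset, held 377 ± 48.5 (n = 2). These orders describe subsets cut from the same cells and have no test.

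The log2 CPM of 8474 genes was compared with each of the 5 over 131 profiles. These were 1 per class or unnamed cluster and lane, sharing lanes and depth, and no phagocyte subset entered. Ccl7 was the profile most like that of Ccl2, with a Pearson r of 0.965, followed by Lpl at 0.885 and Ifi204 at 0.882. For Ccl12 the nearest were Ccl7 (0.885), C3ar1 (0.883) and Ccl2 (0.863). Ccl8 was nearest to the complement genes C1qc (0.881), C1qa (0.872) and C1qb (0.859) and had r = 0.694 with Ccl2. For Ccr2 the nearest were Diaph1 (0.854), Btg2 (0.827) and Hcls1 (0.821), and its r with Ccl2 was 0.241. With a pseudocount of 10 CPM in place of 1 the nearest to Ccl12 were C3ar1 (0.911), Ccl7 (0.894) and Msr1 (0.89), and the gene in first place for the other 4 was unchanged. Detection within cells was compared for Ccl2. Of control isotype macrophages thinned to 1000 UMIs, 73.4% of those with a Ccl2 UMI had Ccl7, against 31.7% of the others, while Ccl8 was seen in 59.2% against 50.4%.

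The study's first question was how agonistic anti-CD40 changes the infiltrate of control tumours. In macrophages, Ccl2, Ccl7, Ccl12 and Ccr2 fell with anti-CD40 and Ccl8 was not called. For Ccl2 the 5 control isotype mice had 2579, 3350, 4194, 4567 and 4821 CPM and the 2 control CD40 mice 1131 and 1386. Every treated mouse lay below every isotype mouse. The log2 change was −1.51 ± 0.25 (SE), with an adjusted p of 0.00041 in edgeR's quasi-likelihood test with Benjamini-Hochberg adjustment over all genes. Ccl7 went from 1659 to 3701 CPM under isotype to 1025 and 1166 (−1.25 ± 0.24, adjusted p = 0.0016), without overlap. Ccl12 went from 1113 to 1981 CPM to 507 and 583 (−1.43 ± 0.24, adjusted p = 0.00045), also without overlap. Ccr2, low in macrophages, went from 106 to 215 CPM to 48.4 and 56.4 (−1.22 ± 0.33, adjusted p = 0.014). Fibroblasts of these groups held 23.9 to 154.5 CPM of Ccr2 under isotype and 13.05 to 55.83 under anti-CD40. Their mean log2 difference was −1.39, so the fall of Ccr2 in the macrophage set is not shown to exceed background. Ccl8 stood at 2834 to 5462 CPM under isotype and 3538 and 5364 under anti-CD40, overlapping (0.31 ± 0.27, adjusted p = 0.43). So 4 of 5 genes were called in a set in which 22.5% of all genes tested were called. The make-up of the phagocytes differed as well. From control isotype to control CD40 tumours S1 went from 10.7% to 1.86% and S3 from 12.4% to 3.03%. S7 went from 4.49% to 26.5% and S10 from 6.15% to 17.8%. The part of these shares in the set's changes was not tested, and changes within subsets are given below. The control isotype lanes differed in level: the 3 mice of the first lane had 4194 to 4821 CPM of Ccl2 and the 2 of the second 2579 and 3350. Without the first lane the change of Ccl2 was −1.10, and it was still called, whereas Ccr2 was not called without that lane or without either control CD40 mouse.

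In macrophages of B2m-null tumours Ccr2 alone of the 5 genes was called. Ccl2 ranged from 2010 to 3537 CPM in 5 isotype mice and from 2349 to 2892 in 4 anti-CD40 mice, with overlap (0.14 ± 0.18, adjusted p = 0.6). Ccl7 (0.04), Ccl12 (0.34) and Ccl8 (0.20 on the log2 scale) were not called either. Ccr2 fell, from 98.4 to 234 CPM to 46.1 to 91.5 (−1.09 ± 0.26, adjusted p = 0.0042), without overlap. Fibroblasts of these groups, 5 to 77 per mouse, held 71.03 to 177.4 CPM of Ccr2 under isotype and 11.21 to 119.1 under anti-CD40. Their mean log2 difference was −1.62, so this fall in macrophages is not shown to exceed background either. The call of Ccr2 was 1 of 5 genes where 33.1% of all genes were called.

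The difference between both effects was itself tested. In macrophages the CD40 effect was higher in B2m-null than in control tumours by 1.78 ± 0.29 for Ccl12 (adjusted p = 0.0015), 1.65 ± 0.30 for Ccl2 (adjusted p = 0.0031) and 1.30 ± 0.30 for Ccl7 (adjusted p = 0.0081), on the log2 scale. For Ccr2 it was 0.14 and for Ccl8 −0.12, neither called. Thus 3 of 5 genes were called against 17.4% of all genes. With lanes in place of mice as the unit (2 samples a group, and 1 for control CD40), edgeR called none of the 5, 3 of them had an unadjusted p under 0.05, and the values were 1.48 for Ccl12 and 1.55 for Ccl2. Ccl7 was not called without 1 of the control CD40 mice or without the first control isotype lane.

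**Figure D3:**
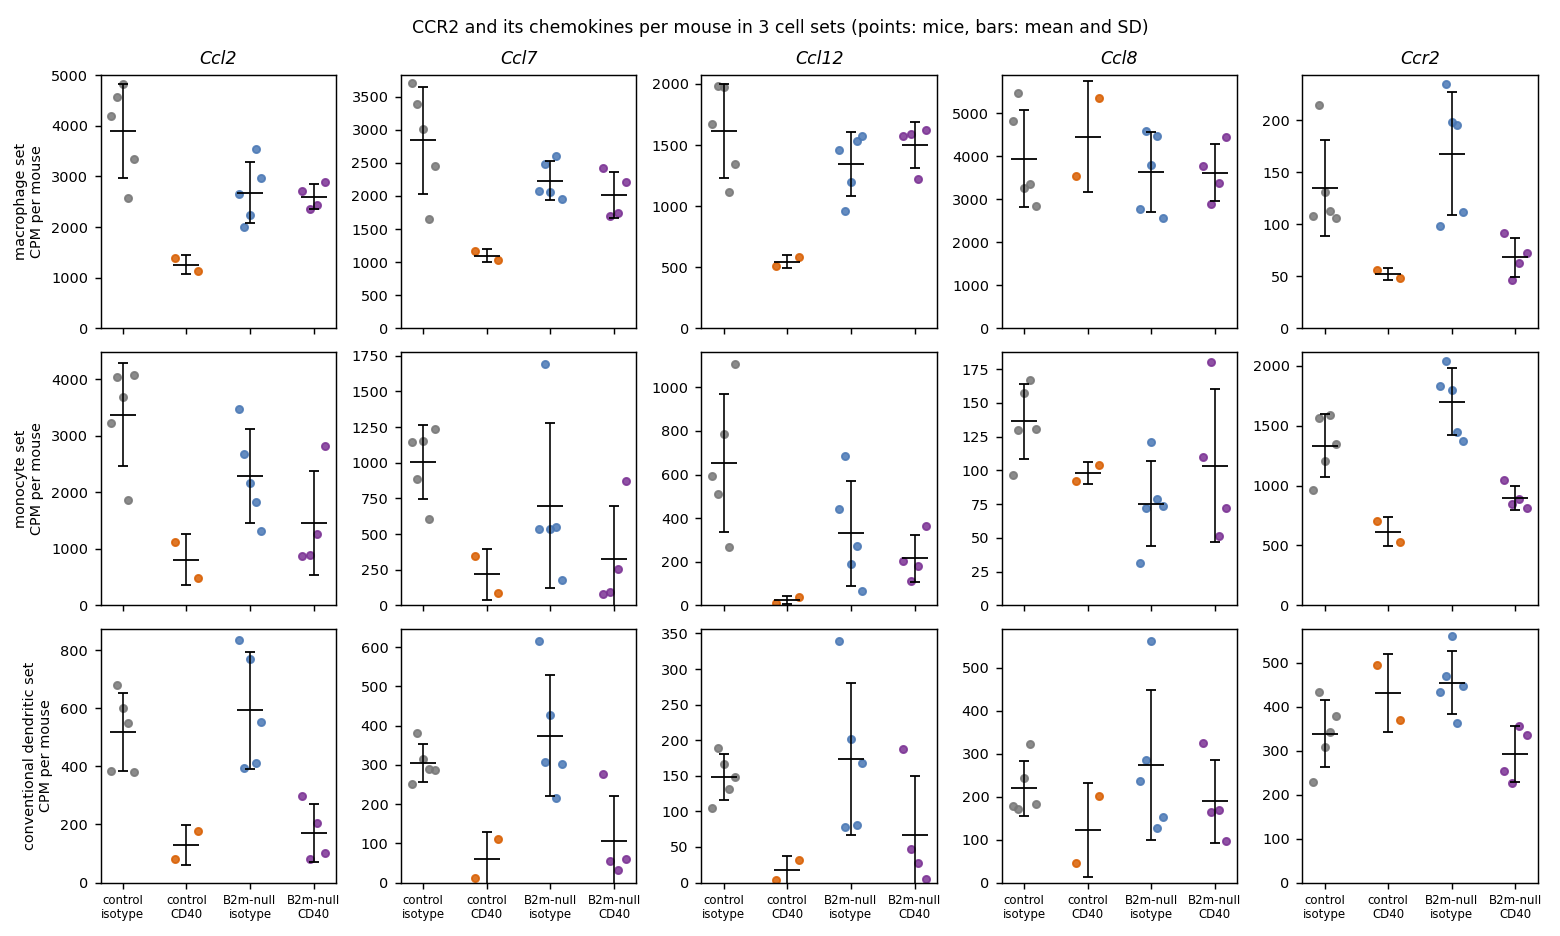
CPM per mouse (y axis, from 0) of the 5 genes in macrophage, monocyte and cDC sets of the 4 groups, with mean and SD as bars. In macrophages the control CD40 mice lie below all others for Ccl2 (1131 and 1386), Ccl7 and Ccl12 but not for Ccl8.

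The genotypes were also compared within each treatment. Under isotype, Ccl2 in macrophages was lower in B2m-null tumours (2681 ± 608 against 3902 ± 926 CPM, log2 change −0.58 ± 0.17, adjusted p = 0.044), the single call among the 5 where 8.18% of genes were called. The mouse ranges overlapped, and without the first control isotype lane the change was −0.17 and was not called. Nor was it called with a replicate block, at the stricter cell filter, with cells thinned, with the compared groups alone or by lane. Under anti-CD40, Ccl12 (1.47), Ccl2 (1.06) and Ccl7 (0.90 on the log2 scale) were higher in B2m-null tumours, 3 of 5 where 11.9% of genes were called, and the groups did not overlap for any of these 3 genes. Without either of the 2 control CD40 mice 1 of the 3 calls was left, and with lanes as the unit edgeR called none of the 5, while all 5 had an unadjusted p under 0.05.

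In monocytes of control tumours Ccr2 and 3 of the 4 ligands fell with anti-CD40. Ccr2 was 961 to 1592 CPM in control isotype mice and 529 and 702 in control CD40 mice (−1.15 ± 0.20, adjusted p = 0.0001). Ccl2 was 1861 to 4080 against 486 and 1128 (−2.17 ± 0.37, adjusted p = 9.7e-05), and Ccl7 607 to 1237 against 88.7 and 345 (−2.58 ± 0.64, adjusted p = 0.0051). For Ccl12 the values were 269 to 1108 against 11.5 and 36.7 (−4.40 ± 0.68, adjusted p = 1.9e-05). In cells thinned to 1000 UMIs, 1.65% of control CD40 monocytes had a Ccl12 UMI against 5.31% of B cells, so the lower level is at background. With the 5 genes and the related lists allowed into the clustering these 4 changes were smaller but still called, at −0.58 for Ccr2, −1.26 for Ccl2, −1.06 for Ccl7 and −0.91 for Ccl12. The monocyte class was then another set of cells. It was made of clusters of 8230 and 3040 cells, against 2523 cells here, and 551 nonclassical monocytes formed their own class. None of the 4 overlapped between groups in the values per mouse above, 4 of 5 genes were called, and 11.9% of all genes were. Ccl8 was low in both groups (−0.44, adjusted p = 0.4). In B2m-null tumours Ccr2 alone of the 5 was called, where 14% of all genes were, at 1374 to 2039 against 815 to 1042 CPM (−0.77 ± 0.15, adjusted p = 0.00065). With each cell thinned to 2000 UMIs the change was −0.46 and was not called, and 3 of the 5 genes were called at clustering resolution 2 or with the related genes in the clustering.

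The make-up of the monocyte set differed between groups. Of its cells 70% were in the classical subset S5 and 9.32% in the nonclassical S11 in control isotype tumours, against 34.3% and 48.3% in control CD40 tumours. In B2m-null tumours these shares were 82.1% and 9.14% under isotype and 54.6% and 23.9% under anti-CD40. S5 also holds cells of the transitional clusters. It had 2959 cells in control isotype and 521 in control CD40 tumours, of which 811 and 79 were in the monocyte set. Most of S5 thus lay outside the set, and its changes are not those of the set's classical part. Within S5 the changes in control tumours were smaller: −0.83 ± 0.22 for Ccl2, called, and −0.22 ± 0.13 for Ccr2, −0.54 for Ccl7 and −0.73 for Ccl12, not called. In B2m-null tumours Ccr2 fell within S5 by 0.61 ± 0.11 on the log2 scale (adjusted p = 0.00058). The 2 control CD40 mice had 53 and 161 monocytes, and leaving out the one with 161 left 1 of the 5 genes called. Without it 1 of the 2 differences between genotypes given next was called, and without the second B2m-null CD40 lane neither was. That mouse also had the highest sum of T cell markers in its monocytes, 321 CPM against at most 68.8 in the 15 others. The part of these markers and of the subset shares in the set's changes was not tested.

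Between genotypes, the CD40 effect in monocytes differed by 4.24 for Ccl12 (adjusted p = 0.00079) and by 1.79 for Ccl2 (adjusted p = 0.0083) on the log2 scale, 2 of 5 genes where 10.2% of all were called. For Ccl7 the difference was 1.91 (adjusted p = 0.11). When the 5 genes and the related lists were allowed into the clustering, in the larger monocyte class described above, the difference for Ccl12 was 1.51 and that for Ccl2 1.06. DESeq2 called Ccl12 (4.12) and not Ccl2 (1.58). Under isotype Ccl12 (−1.35) and Ccl8 (−0.88) were lower in B2m-null monocytes, 2 of 5 against 2.65% of all genes. For Ccl12 the share of 8.89% in B2m-null isotype monocytes is below the 10.7% of B cells given above. In cells thinned to 1000 UMIs, a Ccl8 UMI was found in 8.94% and 7.18% of monocytes of the control and B2m-null isotype groups (median depths of 2019 and 1769 UMIs before thinning), against 9.14% and 8.36% of natural killer cells (1042 and 1400 UMIs), so Ccl8 in monocytes is at background and its change is not read as one of monocytes. DESeq2 and a stricter cell filter (at most 5% mitochondrial counts, at least 500 genes) called neither, and neither was called without the first control isotype lane or the second B2m-null isotype lane. Under anti-CD40 Ccl12 was higher in B2m-null monocytes (2.89), 1 of 5 against 9.27%, and it was not called with the 5 genes and the related lists in the clustering. In neither of these groups is its share in monocytes shown to exceed that of B cells. In B2m-null CD40 tumours the 95% intervals were 6.69 to 13.1% and 5.25 to 11.1%, with overlap.

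In the cDC set the ligands were low, and Ccl2 fell in both genotypes. It was 379 to 680 CPM in control isotype mice and 79.8 and 179 in control CD40 mice (−1.86 ± 0.40, adjusted p = 0.0082), 1 of 5 genes called against 3.33% of all. In B2m-null tumours Ccl2 was 396 to 835 against 82.0 to 298 CPM (−1.61 ± 0.31, adjusted p = 0.0032) and Ccl7 216 to 616 against 32.8 to 276 (−1.78 ± 0.45, adjusted p = 0.016), 2 of 5 against 10.5%. The Ccl2 ranges did not overlap in either genotype. Macrophage markers in the cDC set were lower under anti-CD40 too, summing to 742 to 2429 CPM in control isotype mice against 141 and 1154, and to 870 to 3226 CPM in B2m-null isotype mice against 300.2 to 1122. In CD8 T cells, read above as background, mean Ccl2 was 91.1 CPM in control isotype and 36.4 CPM in control CD40 tumours, and 98.5 and 56.8 CPM in the B2m-null groups. B cells held 758 and 308 CPM of Ccl2 in the control groups, and neutrophils 850 and 659, above the 519 and 129 CPM of the cDC set. In control isotype cells thinned to 1000 UMIs, a Ccl2 UMI was found in 28.4% of B cells and 23.9% of regulatory T cells against 18.2% of the cDC set, at median depths of 1178, 3414 and 4280 UMIs before thinning. The level in the cDC set and its fall are therefore not shown to exceed background. Ccr2 was not called in either (0.36 and −0.46), and its mouse ranges overlapped in control tumours. None of the 5 was called in the genotype comparisons of the cDC set, where 1.6% (isotype), 0.898% (anti-CD40) and 3.93% (difference of the effects) of all genes were called. DESeq2 also called none, and at an unadjusted p under 0.05 edgeR passed 1, 0 and 1 of the 5, Ccr2 each time (0.39 under isotype and −0.83 for the difference). With the highest 5% of doublet scores removed, the Ccl2 changes were −1.30 in control and −0.84 in B2m-null tumours, and neither was called. Without the second B2m-null CD40 lane none of the 5 was called in B2m-null tumours, and without 1 of the control CD40 mice or the first control isotype lane none was in control tumours.

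The same tests were run within the subsets. In control tumours the log2 change of Ccl2 was negative in 11 of 11 subsets and called in 9, from −0.81 in S1 to −2.05 in S11. Ccl7 fell in 6 subsets, Ccl12 in 5 and Ccr2 in 4. The Ccr2 call in S0 is not shown to exceed background. In cells thinned to 1000 UMIs, 4.08% of S0 cells under isotype and 1.85% under anti-CD40 had a Ccr2 UMI. In fibroblasts these shares were 7.25% and 2.55%. Ccl8 was called in none by edgeR or DESeq2, with an unadjusted p under 0.05 in 4 of the 11. Without the control CD40 mouse that gave 161 monocytes, calls over all subsets and comparisons went from 67 to 34. Over all genes and these subsets 7.53% of tests were called. The largest changes of Ccr2 were in S7, at −3.23 ± 0.29, and S8, at −2.61 ± 0.48. In S7 the level went from 288 ± 139 to 28.9 ± 3.02 CPM.

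In B2m-null tumours Ccr2 was negative in 9 of 9 subsets and called in 8, from −0.61 in S5 to −3.02 in S7, where 15.4% of all tests were called. The exception was S2, the cycling subset, at −0.52. In thinned cells a Ccr2 UMI was found in 6.25% of S0 cells under isotype and 2.06% under anti-CD40. Fibroblasts had 4.76% and 2.69%, so the call in S0 is not shown to exceed background here either. S5 stood higher, at 74% and 57%, as did S8, at 40.9% and 16.8%. Ccl2 rose in S1 (0.64 ± 0.16) and S10 (0.55 ± 0.16) and fell in S7 (−0.96 ± 0.25). Ccl7 rose in S1 and fell in S3 and S7, and Ccl12 rose in S1 (1.03 ± 0.19) and S5 (1.15 ± 0.24). The difference between genotypes was called for Ccl2 and for Ccl12 in 6 of 9 subsets each, and for Ccl7 in 3, with 3.58% of all tests called. For Ccl8 and Ccr2 edgeR called it in none, with an unadjusted p under 0.05 in 1 and 2 subsets, and DESeq2 in none for Ccl8 and in 1 for Ccr2. It was largest for Ccl12 in S7 (2.17 ± 0.41) and for Ccl7 in S10 (1.85 ± 0.37).

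Genotype calls within subsets were few. Under isotype Ccl2 was lower in B2m-null tumours in S1 and S10, Ccl12 lower in S5 and Ccr2 higher in S1, where 1.97% of all tests were called. Under anti-CD40, Ccl12 was higher in B2m-null tumours in 6 of 10 subsets, and Ccl2 and Ccl7 in S10, against 2.77% of all tests. Subset S7 held 26.5% of control CD40 phagocytes and 2.95% to 4.79% in the other groups, and S4 held 22% in B2m-null CD40 and 0.276% to 2.74% elsewhere, so that these subsets rest on uneven numbers of cells. Cluster 7, which shares the leading genes Ly6i and Upp1 with S4, made up 21.7% of cells in the first B2m-null CD40 lane and 5.15% in the second. S7 cells had a median of 0.404 times the UMI count of the median phagocyte of their lane.

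**Figure D4:**
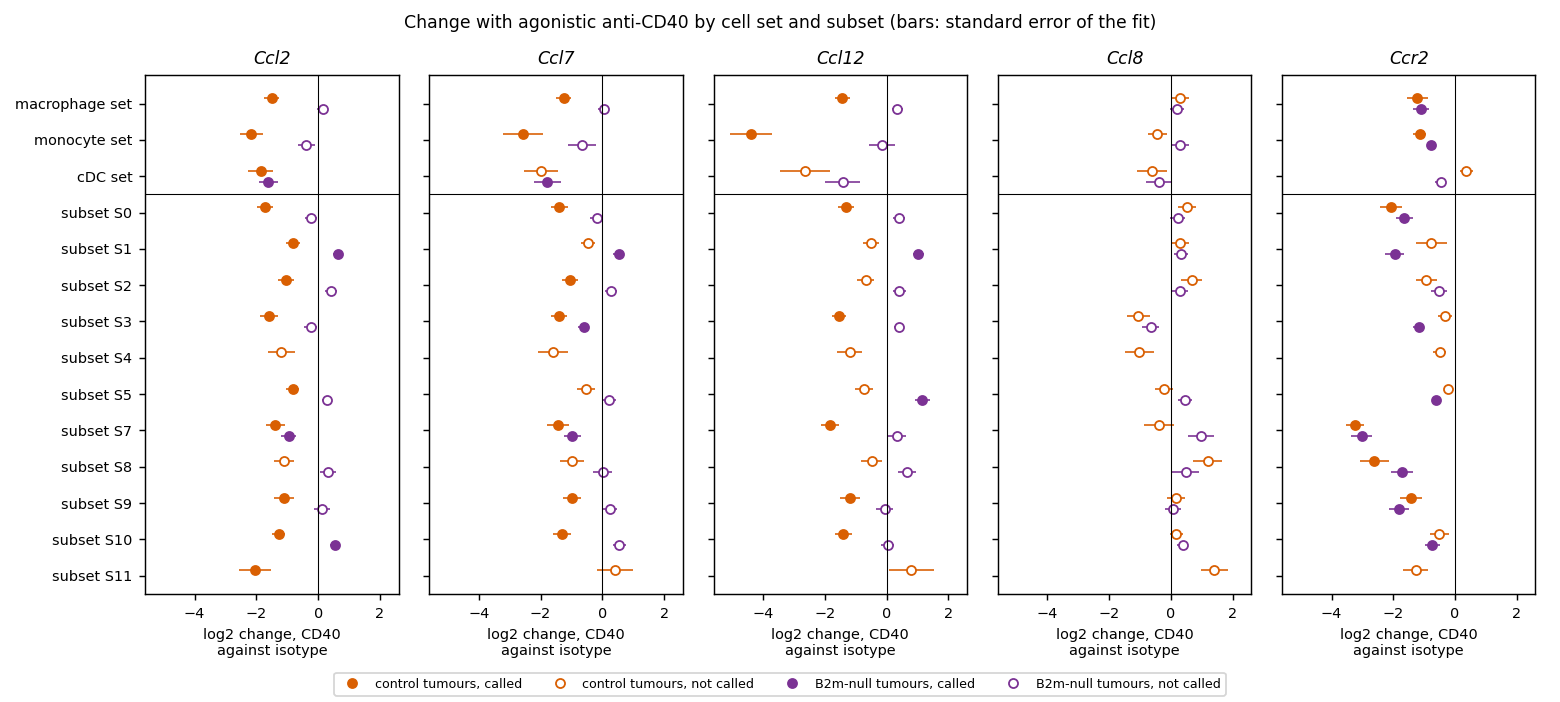
Log2 change with anti-CD40 against isotype (x axis) with its standard error in 3 cell sets and 11 subsets, filled where adjusted p was under 0.05. Apart from Ccl7 and Ccl12 in S11, Ccl2, Ccl7 and Ccl12 lie left of 0 in control tumours, and they lie mostly near or right of it in B2m-null macrophage subsets, while Ccr2 lies left of 0 in all subsets tested in both.

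Fibroblasts were compared after their values had been seen, so their levels are given as a description. A permutation test over mice, which carries the same limit, gave no adjusted p under 0.05 for any of the 5 genes. The lowest was 0.0794, for Ccl2 and Ccl7 in B2m-null tumours. The class scored next highest for pericyte markers. At clustering resolution 2 a fibroblast cluster of 711 cells and a pericyte cluster of 212 cells (Rgs5, Acta2) were named. The part of pericyte-like cells in these levels was not tested. In B2m-null tumours Ccl2 was 373 to 1288 CPM in the 5 isotype mice and 3985 to 6396 CPM in the 4 anti-CD40 mice, without overlap, in 5 to 77 fibroblasts per mouse. Only 1 of these isotype mice and 3 of these anti-CD40 mice had at least 20 fibroblasts, the minimum used for the other classes. Ccl7 was 302 to 784 CPM against 1015 to 1498, also without overlap, and Ccl8 was 197 to 3082 against 737 to 2136, with overlap. In control tumours, with 23 to 175 fibroblasts per mouse, Ccl2 was 808 to 4980 CPM under isotype and 4267 and 4584 under anti-CD40, overlapping. Ccl7 (327 to 1446 against 1495 and 2011 CPM) and Ccl8 (249 to 1310 against 1574 and 1712) did not overlap there. With so few mice, full separation gives an unadjusted p of 0.0952 in the permutation test, the smallest it can reach in control tumours. In B2m-null tumours the smallest is 0.0159. The share of all genes that separate in this way in fibroblasts was not determined, so the separation alone is not read as an effect. Ccl12 in fibroblasts was 21.3 to 187 CPM in control isotype and 17.8 to 32.5 CPM in control CD40 mice. In B2m-null tumours it was 19.7 to 517 CPM under isotype and 22.4 to 279 CPM under anti-CD40. Ccl11, the neighbour of these genes, was found at 555 ± 322 CPM in control isotype fibroblasts and at no more than 1.85 CPM, as a mouse mean, in any other class of that group.

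**Figure D5:**
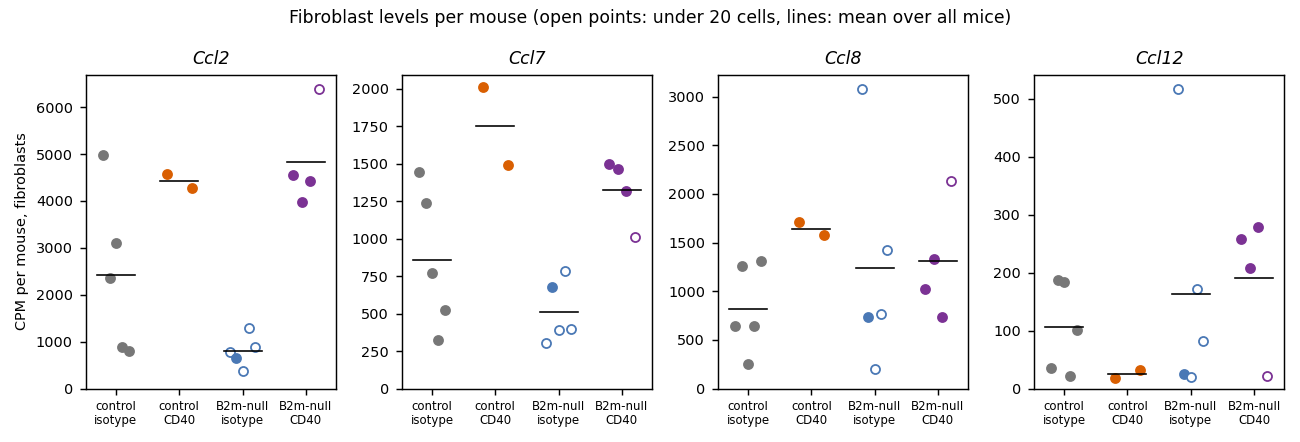
Fibroblast CPM per mouse (y axis, from 0) for the 4 ligands in the 4 groups, open where a mouse had under 20 fibroblasts, with the mean over mice as a line. Ccl2 lies at 373 to 1288 in B2m-null isotype mice and at 3985 to 6396 in B2m-null CD40 mice.

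Other receptors and decoys that share these ligands were mostly too low to test, 3 of 6 listed genes being tested in macrophages and 2 in monocytes. Ccr1, a receptor that CCL7 also binds, fell in monocytes of control tumours (−2.14) and of B2m-null tumours (−0.95), where 11.9% and 14% of all genes were called. In macrophages Ccr3, a receptor for CCL7 and eotaxin, fell in both genotypes (−1.49 and −1.50), and Ccr1 in control tumours (−0.65), 2 of 3 and 1 of 3 genes where 22.5% and 33.1% of all genes were called, so the count in B2m-null tumours is near the share of all genes.

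Of 8 other CC chemokine genes, 6 were tested in monocytes. In control tumours 4 of them fell and 1 rose with anti-CD40, where 11.9% of all genes were called, and DESeq2 called 3 of the 6. The log2 changes were −7.72 for Ccl24, whose product binds the eotaxin receptor CCR3, −1.30 for Ccl9, −0.94 for Ccl4 and 3.00 for the lymphocyte and monocyte attractant Ccl5, which is also among the leading genes of CD8 T cell clusters. In B2m-null monocytes 3 of 6 fell, Ccl24 (−5.43), Ccl9 (−1.37) and Ccl6 (−0.96), against 14% of all genes. In macrophages 2 of 8 were called in control tumours and 3 of 8 in B2m-null tumours, near the 22.5% and 33.1% of all genes called there. Ccl5 rose in both genotypes (1.66 and 2.28), Ccl9 fell in control tumours (−0.61), and Ccl17 (−2.82) and Ccl24 (−2.32) fell in B2m-null tumours. CD8 T cells went from 6.84% to 7.87% of the cells of a lane under isotype to 31.7% to 39.5% under anti-CD40 in control tumours, and from 2.66% to 4.22% to 15.7% to 30.3% in B2m-null tumours. T cell markers were higher under anti-CD40 in the macrophage set (given below) and in the monocytes of 1 control CD40 mouse (321 CPM, with 0 in the other), and their part in the values of Ccl5 was not tested.

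Of 12 genes of monocyte adhesion and egress tested, 7 rose and 2 fell in control monocytes, where 11.9% of all genes were called, and DESeq2 called 6. They were led by Pecam1 (2.34), Spn (2.24), which encodes CD43, Cxcr4 (1.64), the bone marrow homing receptor, and the integrin gene Itgal (1.48). The list's median was 0.77 against 0.01 for all genes. In B2m-null monocytes 1 of 12 was called, Itgam at −0.77, against 14% of all genes. The difference between genotypes was called for 5 of 12 by edgeR and 3 by DESeq2, against 10.2% of all genes, among them Itgal at −1.62, Cx3cr1 at −1.61 and Spn at −1.47. Pecam1, Spn and Cx3cr1 are high in nonclassical monocytes, whose share of the set rose as given above.

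Of 9 genes for signalling below the receptor, 2 were called in control and 4 in B2m-null macrophages, where 22.5% and 33.1% of all genes were. In monocytes 1 of 8 tested was called in each genotype, against 11.9% and 14%, so these counts are near the share of all genes. Pik3cg fell in macrophages of both genotypes (−0.39 and −0.33), and Rac2 rose in B2m-null macrophages (0.62) and monocytes (0.70). Among 14 genes induced by tissue dissociation, 2 rose and 1 fell in control monocytes, where 11.9% of all genes were called, and 8 fell in B2m-null monocytes, against 14%. DESeq2 called 1 and 6 of the 14. Those in B2m-null monocytes were led by the heat shock genes Hspa1b (−3.50) and Hspa1a (−2.66). Their summed level was 9218 to 11030 CPM in B2m-null CD40 monocytes and 13070 to 19840 in the other groups. In macrophages of control tumours edgeR and DESeq2 called none of the 14, and 2 had an unadjusted p under 0.05. In B2m-null macrophages 1 of the 14 fell, against 33.1% of all genes, and the sums overlapped between all groups, at 4647 to 9427 CPM. Their part in the changes of Ccr2 and Ccl2 in monocytes was not tested.

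Markers of other cell types in the macrophage set were low. Melanoma markers summed to 57.3 to 125 CPM and were lowest in B2m-null CD40 mice (57.3 to 70.1), and T cell markers summed to 9.48 to 16.9 CPM in isotype mice and 22.0 to 44.2 under anti-CD40. With cells carrying T cell as well as myeloid transcripts taken out, an alternative added after the data were seen, the numbers of the 5 genes called in macrophages were again 4 in control and 1 in B2m-null tumours. In B2m-null CD40 monocytes neutrophil markers summed to 151 to 1352 CPM, against at most 126 in the other groups.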

How the data were processed

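Single-cell 3′ RNA libraries with hashtag antibodies were made from pooled tumours in 8 lanes, 2 per group. The deposited matrices hold UMI counts per gene and barcode, made with Cell Ranger 3.0.0 and bcl2fastq 2.20.0.422 on mm10 per the submitters' processing notes, and the authors applied no normalization that the files show. In every lane the lowest UMI count of a barcode was 500. Of 116552 barcodes, 9676 hashtag doublets were removed, and cells with under 200 genes or with over 10% of counts from mitochondrial genes were left out. The lanes then held 9722 to 13254 cells with a median of 1781 to 4789 UMIs, and pairs of lanes shared at most 92 barcodes (0.623% of the smaller). Scrublet's automatic threshold marked under 0.0103% of cells and was treated as not working, so removal of the highest 5% of scores is an alternative. Hashtags were assigned from the counts of 2 or 3 hashtags per lane, 16 mice in all.

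Cells were clustered with scanpy 1.11.5 and Leiden (leidenalg 0.10.2, 2000 variable genes, 40 components, 20 neighbours, resolution 1) without the 57 genes described here, and clusters were named from marker lists. Phagocytes were clustered again at resolution 0.8. Counts were summed per mouse and cell set (at least 20 cells) and fitted over all groups with edgeR 4.0.16 (TMM, filterByExpr, glmQLFit, glmQLFTest), in R 4.3.3. Adjusted p-values are Benjamini-Hochberg over all genes tested in a set and comparison, called under 0.05. The fit was tested on simulated data, with changes set into the B2m-null CD40 group and only CD40 against isotype in B2m-null tumours fitted. Comparisons that rest on the control CD40 mice were not simulated. Each hashtag marks 1 mouse, so p-values measure the spread between mice of a group, within and between its lanes. The fit had no term for lane and treated mice of the same lane as independent. No lane held mice of more than 1 group, so differences between lanes enter every comparison of groups. Alternatives were RLE scaling, DESeq2 1.42.0, other filters, thinning to 2000 UMIs, other clusterings, lanes as the unit, a replicate block and leaving out each mouse or lane. The 5 genes and 6 related lists (52 genes) were chosen with earlier results of these data known. Named by rule were the 5 genes and, per list and set, up to 4 called genes with the largest log2 change, a few of which are not reported here. Mice of control CD40 were on both lanes. Likeness used log2(CPM + 1) profiles of at least 50 cells. Lists chosen in this way support nothing by themselves.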

Additional observations from a re-analysis of the deposited data

Results flagged for a closer look

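The difference of the CD40 effect between B2m-null and control tumours passed the test of the difference in macrophages for Ccl12 (1.78 on the log2 scale), Ccl2 (1.65) and Ccl7 (1.30), and in monocytes for Ccl12 (4.24) and Ccl2 (1.79). Control CD40 tumours came from 2 mice, and all 5 values rest on them. Outside control isotype tumours, Ccl12 in monocytes is not shown to exceed its level in B cells, as given above.

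In 4 of 45 groups of mice, 1 mouse stood far from the others of its group, where chance flags about 1 in 20. Ccl7 in B2m-null isotype monocytes was 1691 CPM in 1 mouse, with the next at 549. Ccl12 in B2m-null CD40 macrophages was 1223 CPM in 1 mouse, with the next at 1574. Ccr2 in control isotype macrophages was 215 CPM in 1 mouse, with the next at 131. Ccl7 in the B2m-null CD40 cDC set was 276 CPM in 1 mouse, with the next at 59.0; that mouse's Ccl2 was 298 CPM, its Ccl8 326 CPM and its Ccl12 188 CPM, the highest of the 4. The macrophage markers in its cDC set summed to 1122 CPM, also the highest of the 4, and their part was not tested.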

How the results depend on the processing

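Of the log2 changes of the 5 genes in the 3 sets, those called kept their direction in every alternative fit. They kept the call in 281 of 317 fits with another setting and in 537 of 600 that left out a mouse or lane. Of those not called, 29 and 33 fits changed sign. The cause of a change was not tested. With RLE scaling no number of genes called moved by over 1.5 times.

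Numbers of the 5 genes called that moved are given by set. In monocytes, CD40 against isotype in B2m-null tumours (1 called) gave 3 at clustering resolution 2, 0 thinned to 2000 UMIs, 2 with no filter on low counts and 3 with the 57 genes in the clustering. B2m-null against control under isotype (2) gave 0 with DESeq2, 0 at the stricter cell filter (5% mitochondrial, 500 genes), 1 at resolution 2, 4 with no filter, 1 with the replicate block, 1 with transitional clusters as monocytes and 1 with the 57 genes. Under anti-CD40 (1) the numbers were 2 with doublet scores removed, 2 by lane, 2 at 50 cells, 3 with no filter and 0 with the 57 genes. The difference (2) gave 1 with DESeq2. In macrophages, B2m-null against control under isotype (1) gave 0 at the stricter filter, with the compared groups alone, thinned, by lane, with the replicate block and with transitional clusters added. By lane the 3 calls under anti-CD40 and the 3 of the difference were 0. In the cDC set, control tumours (1) gave 2 with DESeq2, 3 with the compared groups alone, 0 thinned, 0 with doublet scores removed and 3 with no filter. B2m-null tumours (2) gave 1 thinned, 1 with doublet scores removed, 1 by lane, 4 with no filter and 1 with the 57 genes, and the difference (0) gave 1 with no filter. In subsets, 67 of 240 tests were called and 141 with no filter.

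Changes not called that took the other sign were these, on the log2 scale. At resolution 2 they were in monocytes: Ccl8 1.63 in control tumours, Ccl2 0.01 and Ccl12 1.10 in B2m-null tumours, Ccr2 −0.28 under anti-CD40, and Ccl8 −0.03 and Ccr2 −0.66 for the difference. With the 57 genes they were Ccl8 0.25 in control and Ccl12 0.60 in B2m-null monocytes, Ccl8 0.28 and Ccr2 −0.58 under anti-CD40, Ccr2 −0.84 for the difference and Ccl8 0.08 in B2m-null cDC. With transitional clusters as monocytes they were Ccl8 0.23, Ccl12 0.42, Ccr2 −0.30 and Ccr2 −0.51 for control tumours, B2m-null tumours, genotype under anti-CD40 and the difference, and with them as macrophages Ccl7 −0.14 in B2m-null tumours. At 50 cells B2m-null monocytes gave Ccl2 0.24, Ccl8 −0.22 and Ccl12 0.12. Thinned, they gave Ccl7 0.19 and Ccl12 0.21, macrophages Ccl7 −0.02 and cDC Ccl8 0.19. The stricter filter gave Ccl7 −0.01 in B2m-null macrophages and Ccl8 0.04 in monocytes under anti-CD40. With doublet scores removed, cDC gave Ccl8 0.52 in control and Ccl8 0.83 and Ccl12 0.24 in B2m-null tumours.

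Leaving out each mouse or lane in turn gave these ranges of genes called. Where 1 mouse was left in control CD40 it was assumed to vary like the others. In the order CD40 in control, CD40 in B2m-null, genotype under isotype, genotype under anti-CD40 and difference, they were 3 to 4, 1 to 2, 0 to 2, 1 to 3 and 2 to 3 in macrophages. In monocytes they were 1 to 4, 1 to 3, 0 to 3, 0 to 3 and 0 to 3. In the cDC set CD40 in control gave 0 to 3, CD40 in B2m-null 0 to 3 and the difference 0 to 1. Subsets gave 34 to 89, the lowest without the control CD40 mouse with 161 monocytes and the highest without the second control isotype lane. Changes not called that took both signs were, in macrophages under isotype, Ccl12 −0.53 to 0.11, Ccl7 −0.65 to 0.09 and Ccl8 −0.37 to 0.19, each highest without the first control isotype lane. In B2m-null macrophages they were Ccl2 −0.15 to 0.39 and Ccl7 −0.03 to 0.13, and Ccl8 was −0.60 to 0.10 under anti-CD40, −0.07 to 0.67 in control tumours and −0.45 to 0.27 for the difference, with Ccr2 at −0.14 to 0.31. In B2m-null monocytes they were Ccl2 −1.21 to 0.08, Ccl7 −2.77 to 0.06, Ccl8 −0.22 to 1.02 and Ccl12 −0.87 to 0.40. Under anti-CD40 they were Ccl7 −0.91 to 2.21 and Ccl8 −0.64 to 0.57, with the difference of Ccl7 at −0.19 to 2.91 and Ccl8 in B2m-null cDC at −0.84 to 0.48.

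Replicate numbers mark lanes, and deviations of lanes with the same number correlated at −0.06, 0.17 and 0.31 over 7512 genes, so they were not taken as pairs. The replicate block left out control CD40, whose mice were on both lanes, and called 22 of 90 subset tests against 20 without it. Ccl12 in control monocytes ranged from −4.56 with DESeq2 to −0.91 with the 57 genes in the clustering, called in both. Removal of mixed T cell and myeloid cells and both moves of transitional clusters were chosen after seeing the data. Few monocytes per mouse (53 in 1 control CD40 mouse) limit the precision there.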

Other observations

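Mast cells and basophils, 75 cells in all, held 8417 CPM of Ccl2 in 13 pooled cells of B2m-null CD40 tumours, the highest pool of that group, and 4259 CPM in 7 cells of control CD40 tumours, level with the 4258 CPM of fibroblasts there. Under isotype the pools held 1268 CPM in 31 cells and 958 CPM in 24 cells. No mouse had 20 such cells, and no test was made. A cluster of 197 cells led by the osteoclast genes Ctsk, Acp5 and Ocstamp, present almost only under anti-CD40 (161 cells in B2m-null CD40 and 33 in control CD40 tumours), held 129 and 276 CPM of Ccl2 and 13.2 and 29.9 CPM of Ccr2, below the macrophage levels of the same groups. This cluster made up 1.28% of the first B2m-null CD40 lane, 0.265% of the second, and 0.116% and 0.143% of the control CD40 lanes. In each of these groups 1 mouse had at least 20 such cells.

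Ccl1, the last gene of this stretch of chromosome 11, was a lymphocyte transcript in control isotype tumours, at 379 ± 186 CPM in CD4 T cells (n = 3 mice with 20 cells) and 124 ± 61.7 CPM in CD8 T cells (n = 5). In natural killer cells, Ccr2 stayed at 652 to 763 CPM as a group mean in all 4 groups. In neutrophils Ccr2 was 483 ± 130 CPM in B2m-null isotype tumours (n = 3) and 123 to 190 CPM as a mean in the other groups. Differences in these classes were not tested.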
